A study of Mus musculus with 12 samples.

Results

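Inguinal white adipose tissue (WAT) pads of 12 male mice were compared by how much skeletal muscle RNA they carried, and not by genotype. The pads were selected on the log2 value of Acta1, which encodes skeletal muscle actin: arrays at 10 or more were taken as muscle-rich and arrays under 8 as muscle-poor. Of the 12 arrays, 4 were muscle-rich (WT mice 1 and 5, R6/2 mice 3 and 6) and 5 were muscle-poor (WT mice 2, 3, 4 and 6, R6/2 mouse 2). The other 3 arrays, R6/2 mice 1, 4 and 5, fell between and were left out of the comparison. Because the groups were set by Acta1, the values of Acta1 and of the other muscle genes are given as a description with no p-value. The fit and its adjustment ran over all genes that passed a filter on low values, muscle genes included.

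The mice were on a C57BL/6 background and 12 weeks old, 6 R6/2 and 6 wild type (WT) littermates. R6/2 mice carry a transgene with exon 1 of human huntingtin and an expanded CAG repeat, and are a model of Huntington's disease; the WT mice lack it. Each mouse gave 1 Affymetrix Mouse Gene 2.0 ST array, so that each array is a separate animal, with 1 log2 value per probe set. All 3 arrays left out were R6/2 and 4 of the 5 muscle-poor arrays were WT, so genotype was kept as a covariate in the main fit. R6/2 mice were set against a single muscle-poor array of their own genotype.

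Skeletal muscle fibres contract through thick filaments of myosin and thin filaments of actin, anchored in repeating sarcomeres by the Z-disc, and calcium released from the sarcoplasmic reticulum switches the thin filament on. Fibres differ in the myosin heavy chain they make: Myh4 marks the fastest, glycolytic IIb fibres, Myh1 marks IIx, Myh2 marks IIa and Myh7 marks slow, oxidative fibres. The inguinal pad lies under the skin of the groin, next to muscles of the abdominal wall and hind limb, and its fat cells, vessels and immune cells form no sarcomeres.

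Among the 14550 genes tested, 58 were higher in the muscle-rich arrays and 2 were lower by limma with Benjamini-Hochberg adjustment at 0.05, which is 0.399% and 0.0137% of all genes. At an unadjusted p of 0.05 the counts were 733 (5.04%) and 415 (2.85%). Of the 58, 43 were in the muscle lists and 15 were outside them, and nothing is read from either count because the groups were chosen by a muscle gene. In 418 genes (2.87% of all) every muscle-rich array was above every muscle-poor array, and in 225 (1.55%) every one was below. The median difference over all genes was -0.01 on the log2 scale. The size of the muscle contrast was also compared between WT and R6/2 mice (limma interaction term), and 0 genes passed at an adjusted p of 0.05 and 167 at an unadjusted p of 0.05. That comparison rests on 1 muscle-poor R6/2 array, so it says little about whether the contrast differed between the genotypes.

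R6/2 mouse 3 stood apart from the other muscle-rich arrays before any contrast was made. It had the highest value among the muscle-rich arrays in 98 of the 142 muscle-list genes that passed the filter on low values. Over all genes tested R6/2 mouse 3 was the highest in 5287 of 14550. This was not limited to muscle genes: it was the highest in 67 of 77 respiratory chain genes and in 1 of 16 macrophage genes. WT mouse 1 had the lowest value in 99 of the 142 muscle-list genes. The mean of 15 lymphocyte genes was 5.50 in R6/2 mouse 3, against 8.03, 9.14 and 9.79 in WT mouse 1, WT mouse 5 and R6/2 mouse 6. A low lymphocyte mean was also found in WT mouse 4 of the muscle-poor arrays (5.37) and in R6/2 mouse 4 of the arrays left out (5.56), while the other muscle-poor arrays lay between 8.55 and 10.21. List medians are therefore given with and without R6/2 mouse 3, and the fit with the lymphocyte mean as a covariate is given with the limits at the end.

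Acta1, on which the arrays were split, read 11.11 in WT mouse 1, 12.60 in WT mouse 5, 11.82 in R6/2 mouse 3 and 10.49 in R6/2 mouse 6. The muscle-poor arrays read 7.87 in WT mouse 2, 6.67 in WT mouse 3, 7.89 in WT mouse 4, 6.72 in WT mouse 6 and 6.31 in R6/2 mouse 2. The 3 arrays between read 8.45 in R6/2 mouse 1, 9.03 in R6/2 mouse 4 and 9.66 in R6/2 mouse 5. Just inside the upper threshold was R6/2 mouse 6 at 10.49 and just outside it R6/2 mouse 5 at 9.66, while WT mouse 4 at 7.89 was just inside the lower threshold and R6/2 mouse 1 at 8.45 just outside it.

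Myh4, the IIb myosin heavy chain, read 11.51, 12.91, 12.10 and 12.60 in WT mice 1 and 5 and R6/2 mice 3 and 6, and 3.99, 4.76, 5.26, 4.99 and 4.81 in WT mice 2, 3, 4 and 6 and R6/2 mouse 2. R6/2 mouse 6, which had the lowest Acta1 of the muscle-rich arrays, had the second highest Myh4. With genotype as a covariate the difference was 7.49 ± 0.35 (log2, SE, 4 against 5 arrays), and it was 7.55 without R6/2 mouse 3. All 5 muscle-poor values were under the level limit of 5.45, the median of the probe sets without a gene symbol, so the ratio is a bound: the mean of the muscle-rich arrays, 12.28, was at least 114-fold above that limit. Within WT mice alone the difference of the means was 7.46 and within R6/2 mice 7.55. Among the muscle-poor arrays the order of Acta1 was not that of Myh4: WT mouse 2 had the second highest Acta1 and the lowest Myh4.

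Atp2a1, the calcium pump of the sarcoplasmic reticulum in fast fibres, read 10.30, 11.78, 11.53 and 11.48 in WT mice 1 and 5 and R6/2 mice 3 and 6, and from 5.25 to 5.74 in the 5 muscle-poor arrays. Its difference was 5.66 ± 0.28 (log2, SE), a ratio of 50.4. The muscle-poor values lay close to the level limit of 5.45, with WT mouse 2 under it, so the ratio is approximate. The arrays left out were not free of muscle RNA. Their Myh4 values were 9.07, 10.38 and 10.42 and their Atp2a1 values 7.85, 8.72 and 9.19 in R6/2 mice 1, 4 and 5, all above every muscle-poor array and below every muscle-rich one.

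**Figure D1:**
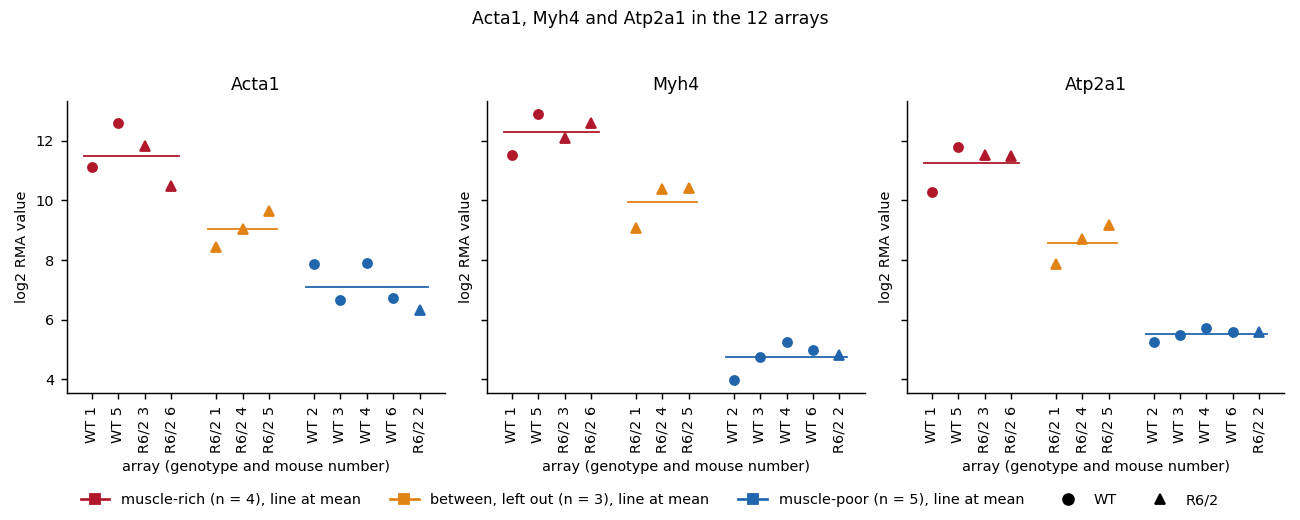
Log2 RMA values of Acta1, Myh4 and Atp2a1 (vertical axes) in each of the 12 arrays (horizontal axes), with circles for WT and triangles for R6/2 mice and a line at the mean of each group. Acta1 set the groups. Myh4 lay between 11.51 and 12.91 in the muscle-rich, 9.07 and 10.42 in the left-out and 3.99 and 5.26 in the muscle-poor arrays.

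The letters in front of these genes are shown because Acta1 set the groups and Myh4 gave the widest gap, and Myoz2 is added as a gene that only 1 muscle-rich array carried, described further on. The 250 bases before each start were taken from RefSeq (build GRCm38.p6), and 5 of 5 genes looked up (Acta1, Myh4, Atp2a1, Myh2, Myoz2) had an entry. They were searched on both strands for the CArG box, the TATA box (TATAAA), the E-box (CANNTG) and a MEF2 site (CTA and TAG with 4 bases between them). The capitals mark the CArG box and the TATA box in Acta1 (chr8:123894776-123895025, minus strand) and in Myh4 (chr11:67237562-67237811, plus strand), and the MEF2 site in Myoz2 (chr3:123034988-123035237, minus strand).
Acta1: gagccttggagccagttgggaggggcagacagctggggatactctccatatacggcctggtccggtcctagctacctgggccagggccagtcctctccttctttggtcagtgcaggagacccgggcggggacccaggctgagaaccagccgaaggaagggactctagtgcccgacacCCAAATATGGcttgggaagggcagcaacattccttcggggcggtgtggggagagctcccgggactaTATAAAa
Myh4: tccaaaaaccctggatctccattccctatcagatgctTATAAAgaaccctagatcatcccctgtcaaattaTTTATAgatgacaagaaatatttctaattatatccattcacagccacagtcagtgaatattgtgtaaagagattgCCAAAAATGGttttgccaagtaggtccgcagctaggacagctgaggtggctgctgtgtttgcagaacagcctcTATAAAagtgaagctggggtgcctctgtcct
Myoz2: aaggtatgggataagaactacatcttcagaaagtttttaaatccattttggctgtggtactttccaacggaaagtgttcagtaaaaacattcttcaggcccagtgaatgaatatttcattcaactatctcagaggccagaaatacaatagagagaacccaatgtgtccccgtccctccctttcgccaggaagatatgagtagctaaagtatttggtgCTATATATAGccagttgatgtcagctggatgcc
A CArG box was present in Acta1, starting 73 bases before the start, and in Myh4, 104 bases before it, and in 1.47% of all 32851 promoter windows of that length. The TATA letters occurred in both genes, 1 time in Acta1 and 3 times in Myh4, and in 12.4% of all windows. The MEF2 letters occurred in Myoz2 only among the 5 genes, 33 bases before its start, and in 3.2% of all windows. At least 1 E-box was present in Acta1, Myh4, Atp2a1 and Myoz2, and in 66.2% of all windows, and the window of Myh2 held none of the 4 motifs. The marked motifs overlapped no other motif searched. A match is a description of letters and not of a bound site.

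All 15 fast fibre genes passed the filter on low values, and all 15 differences were above 0, with a median of 4.36 (4.29 without R6/2 mouse 3) against -0.01 over all genes. In 14 of the 15 every muscle-rich array was above every muscle-poor array. Over all genes tested this held in 2.87%, the share to set beside each such count of a muscle list below. The groups were chosen by a muscle gene, so nothing is read from these counts. Actn3, the alpha-actinin of fast Z-discs, read 9.84, 11.35, 11.24 and 11.26 in WT mice 1 and 5 and R6/2 mice 3 and 6 and from 5.28 to 5.80 in the muscle-poor arrays, a difference of 5.21 ± 0.29 (log2, SE). Tnnc2, the calcium-binding troponin of fast fibres, read 9.55, 11.04, 10.96 and 10.81 against 7.11 to 7.54, a difference of 3.21 ± 0.30. Pvalb, the calcium buffer of fast fibres, read 9.50, 11.31, 10.70 and 10.78 against 5.33 to 6.48. WT mouse 1 was the lowest of the 4 arrays in each of these genes. Of the other fast fibre genes Mylpf, Myl1, Tnnt3, Tnni2, Casq1, Mybpc2, Myoz1 and Eno3, which encode light chains, troponins, a calcium store, a filament protein, a Z-disc protein and an enolase, none overlapped between the groups. Their differences ran from 2.09 in Myl1 to 4.88 in Tnnt3.

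The arrays left out lay above all muscle-poor and below all muscle-rich arrays in 11 of the 15 fast fibre genes. Their mean over the list ran from 7.11 to 8.08, against 8.90 to 10.47 in the muscle-rich and 5.76 to 5.97 in the muscle-poor arrays. These arrays had been set aside for an Acta1 between the thresholds, so nothing is read from their place between the groups. The muscle-poor arrays were narrow, and in 6 of the 15 genes their mean was under the level limit of 5.45. In these bulk pads fewer cells of a type and less RNA per cell cannot be told apart.

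Of 14 slow fibre genes on the array 13 passed the filter, 10 with a difference above 0 and 3 below, the median was 0.22, and in none of the 13 did the groups separate. Without R6/2 mouse 3 the median was 0.07, and within WT mice it was 0.05. The list mean was 7.36 in R6/2 mouse 3 and between 6.22 and 6.30 in the other muscle-rich arrays, inside the range of 6.13 to 6.39 of the muscle-poor arrays.

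**Figure D2:**
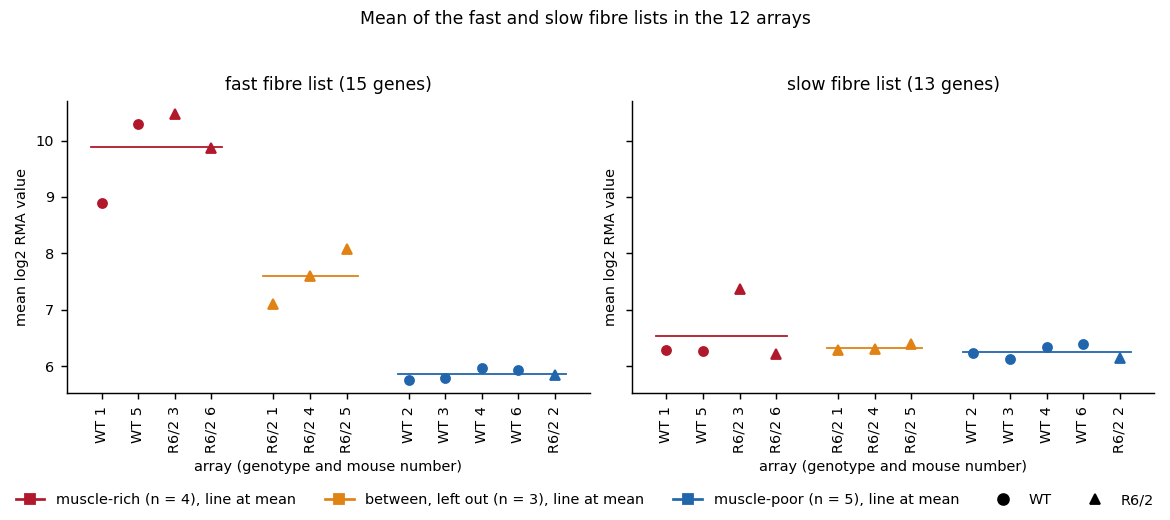
Mean log2 RMA value of the fast fibre list (15 genes) and the slow fibre list (13 genes) in each of the 12 arrays, with circles for WT and triangles for R6/2 mice and a line at each group's mean. The fast fibre means of the 3 groups do not overlap, and in the slow fibre list only R6/2 mouse 3 at 7.36 lies above the other arrays, which run from 6.13 to 6.40.

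The muscle-rich arrays thus differed among themselves in the fibre genes they carried. Myh2, the IIa heavy chain, read 9.47 in R6/2 mouse 3 and 5.28, 5.37 and 5.46 in WT mouse 1, WT mouse 5 and R6/2 mouse 6, where the muscle-poor arrays read 4.99 to 5.69. Its difference of 0.73 ± 0.80 (log2, SE) was 0.04 without R6/2 mouse 3. Myh1, the IIx heavy chain, read 9.28 in R6/2 mouse 3 and 6.38, 5.44 and 6.12 in the other 3, against 4.29 to 4.96 in the muscle-poor arrays. Myh1 was thus above the muscle-poor arrays in all 4 muscle-rich arrays, and Myh2 in R6/2 mouse 3 alone. For Myh1 the value of WT mouse 5, 5.44, and all muscle-poor values were under the level limit of 5.45. Its presence in WT mouse 5 is therefore not shown.

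Slow fibre genes showed the same array apart. Myh7, the slow heavy chain, read 7.08 in R6/2 mouse 3 and 5.10 to 5.24 in the other muscle-rich arrays, against 5.06 to 5.44. Tnnc1, the troponin C of slow fibres and heart, read 8.29 against 6.59 to 6.72 in the other muscle-rich arrays and 6.41 to 6.74 in the muscle-poor ones. Csrp3, a Z-disc LIM protein, read 7.95 against 5.51 to 5.94, and Mb, the oxygen store of oxidative fibres, read 8.78 against 6.24 to 6.86. The other slow fibre genes that passed were Myl2, Myl3, Tnnt1, Tnni1, Atp2a2, Casq2, Myh7b, Pln and Tpm3. Their differences lay between -0.30, in Tpm3, and 0.55 with overlapping groups. Myoz2, the calsarcin of slow fibres, whose level was under the filter, read 7.55 in R6/2 mouse 3 and 3.75 to 4.11 in the other muscle-rich arrays. In all, 14 of the 142 muscle-list genes were at least 1 log2 unit above each of the other muscle-rich arrays in R6/2 mouse 3, and 6 of these at least 2 units. The share of all genes tested that did so was not counted.

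Genes outside both fibre lists were among those 14. Mybpc1, the myosin-binding protein C of slow-type filaments, read 10.01 against 6.11, 6.04 and 7.06 in WT mouse 1, WT mouse 5 and R6/2 mouse 6. Actn2, the alpha-actinin present in all fibre types and in heart, read 9.30 against 5.34, 5.41 and 7.10, and 4.53 to 5.11 in the muscle-poor arrays. Lmod2, an actin filament nucleator known in heart and skeletal muscle, read 9.58 against 5.76 to 6.48. Mybpc1, Actn2 and Lmod2 were chosen after their values were seen. R6/2 mouse 5, an array left out, held intermediate values of the same genes, with 6.89 for Myh2, 7.58 for Mybpc1 and 6.58 for Actn2.

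**Figure D3:**
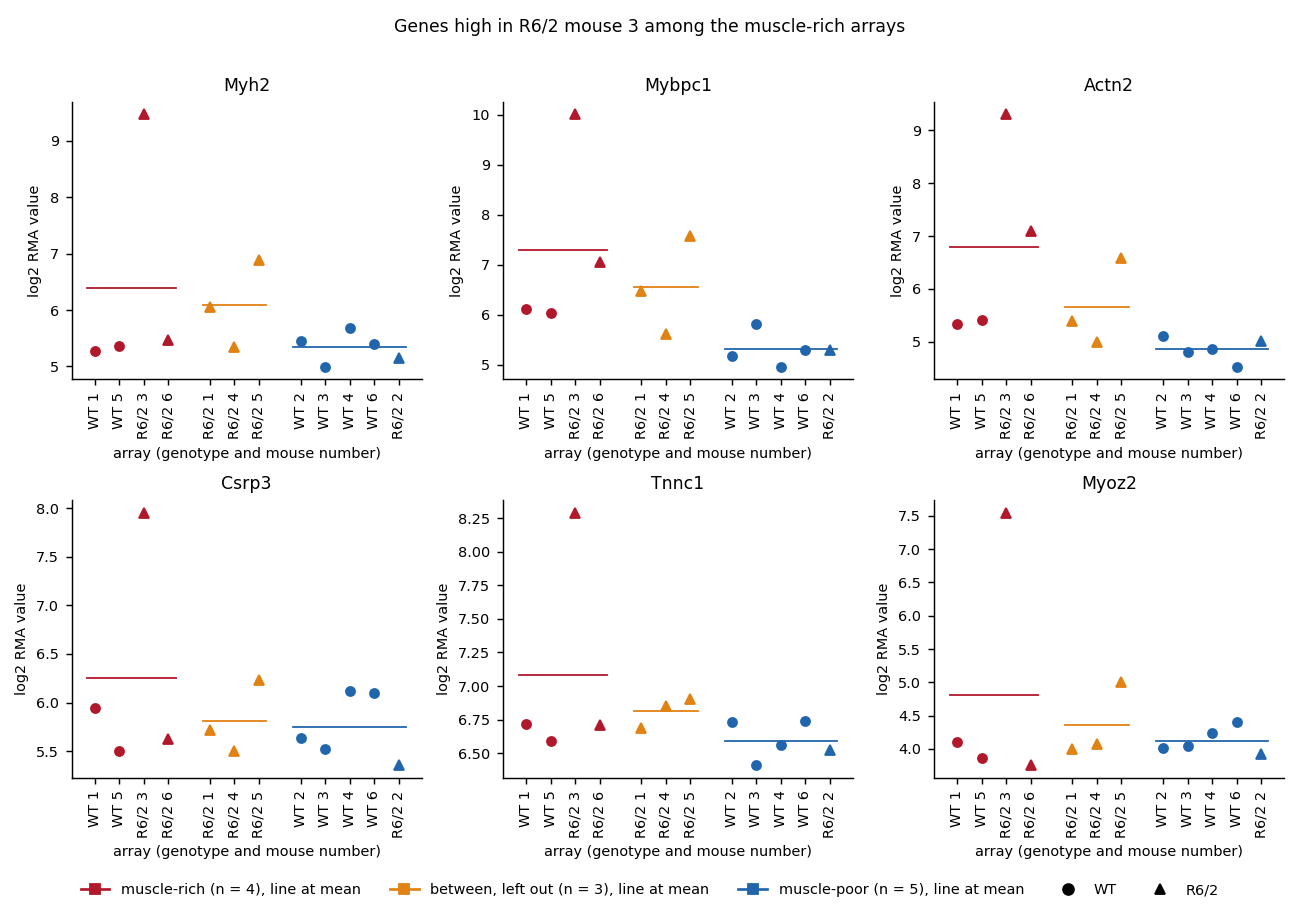
Log2 RMA values of Myh2, Mybpc1, Actn2, Csrp3, Tnnc1 and Myoz2 in each of the 12 arrays, with circles for WT and triangles for R6/2 mice and a line at each group's mean. R6/2 mouse 3 is the highest of the 12 arrays in all 6 panels, with Myh2 at 9.47 and Myoz2 at 7.55.

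The thick filament list, which also holds Myh4, Myh1, Myh2, Myh7 and Mybpc1, had 17 genes that passed. Of these 15 had a difference above 0, the median was 1.97 (1.64 without R6/2 mouse 3), and 11 separated the groups. In 12 R6/2 mouse 3 was above every other muscle-rich array, as it was in 5287 of all 14550 genes tested. Ttn, the giant elastic protein of the sarcomere, read 9.69, 11.35, 11.59 and 11.48 in WT mice 1 and 5 and R6/2 mice 3 and 6 and from 5.38 to 6.51 in the muscle-poor arrays, a difference of 4.84 ± 0.37 (log2, SE). The embryonic and neonatal heavy chains Myh3 and Myh8 were under the filter, at 3.69 to 4.17 and 4.28 to 4.60 in the muscle-rich arrays, inside or close to the muscle-poor ranges of 3.78 to 4.18 and 4.08 to 4.71.

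In the thin filament and Z-disc list 28 of 29 genes passed, 27 with a difference above 0, the median was 1.84 (1.66 without R6/2 mouse 3), and 21 separated the groups. Neb, which spans the thin filament, read 9.39, 10.92, 11.58 and 11.55 against 5.62 to 6.15, a difference of 4.81 ± 0.38. Tpm3, the tropomyosin of slow fibres and of non-muscle cells, had the lowest difference of the list, at -0.30 ± 0.15, and its groups overlapped.

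Genes of excitation-contraction coupling had differences above 0 in all 19 that passed, with a median of 1.57 (1.47 without R6/2 mouse 3), and 14 separated the groups. Trdn, a partner of the calcium release channel, read 8.44, 9.94, 10.80 and 10.68 against 4.69 to 4.97, and Ryr1, the channel itself, read 7.05, 8.02, 8.08 and 8.09 against 5.49 to 5.73. The small inhibitors of the calcium pump differed from each other. Mrln, known from skeletal muscle, read 4.67, 5.88, 7.15 and 6.72 against 4.29 to 4.65, and Sln, known from atria and slow fibres, read 6.07 in R6/2 mouse 3 and 3.25 to 4.30 in the other muscle-rich arrays, both under the filter. Pln, the inhibitor of slow fibres and heart, read 5.74 to 6.39 against 5.95 to 6.34.

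Energy genes of muscle had differences above 0 in all 20 that passed, with a median of 1.45 (1.34 without R6/2 mouse 3), and 16 separated the groups. Pygm, muscle glycogen phosphorylase, read 9.65, 11.54, 11.28 and 11.19 in WT mice 1 and 5 and R6/2 mice 3 and 6 and 5.72 to 6.30 in the muscle-poor arrays, a ratio of 26.7. Ckm, muscle creatine kinase, read 9.53, 11.34, 10.64 and 10.62 against 5.92 to 6.51, a ratio of 19.7. Slc2a4, the insulin-responsive glucose transporter that fat cells also use, read 9.37 to 10.05 against 8.11 to 9.73 and its groups overlapped.

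The sarcolemma list had 16 genes that passed, all with a difference above 0 and a median of 0.87 (0.68 without R6/2 mouse 3), of which 7 separated the groups. Des, the intermediate filament of muscle, read 8.19, 9.80, 10.56 and 10.03 against 6.98 to 7.88. Dysf and Itga7, which smooth muscle and other cells also make, overlapped, with differences of 0.22 and 0.18.

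Of 15 myogenic and satellite cell genes that passed, all had a difference above 0, the median was 0.29 (0.19 without R6/2 mouse 3), and 3 separated the groups. Myf6, the myogenic factor of mature fibres, read 5.73, 7.17, 7.78 and 7.50 against 4.95 to 5.17. Mstn, the secreted inhibitor of muscle growth, read 5.12, 7.04, 7.76 and 7.76 against 3.59 to 4.34, a difference of 2.82 ± 0.48. It was the only one of 8 secreted factors that passed to separate the groups. Of these 8, 4 had a difference above 0 and 4 below, with a median of 0.05 (0.03 without R6/2 mouse 3). Il15 and Metrnl were below 0 in all 24 alternatives to the main fit. Of 7 neuromuscular junction genes that passed, 6 had a difference above 0 and 1 below, with a median of 0.08 (0.06 without R6/2 mouse 3). Only Musk, the kinase that organizes the junction, separated the groups, at 5.02, 5.53, 6.69 and 6.41 against 4.58 to 4.87. In Mstn and Musk, WT mouse 1 and all muscle-poor arrays were under the level limit of 5.45. Chrna1, the receptor subunit for acetylcholine, read 7.06 in R6/2 mouse 3, 6.00 in R6/2 mouse 6, and 4.78 and 4.94 in WT mice 1 and 5.

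Of 12 ubiquitin ligase and kelch genes, all had a difference above 0, with a median of 0.59 (0.47 without R6/2 mouse 3), and 6 separated the groups. Klhl31 and Klhl41, kelch proteins of skeletal muscle, had differences of 3.33 ± 0.35 and 2.77 ± 0.43. Over all muscle lists together, 80 of 142 genes that passed separated the groups, against 2.87% of all genes. In 37 of the 80 the 3 left-out arrays lay apart from both. The share of all genes with that order was not counted. Nothing is read from it, because these arrays were set aside for an Acta1 between the thresholds.

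**Figure D4:**
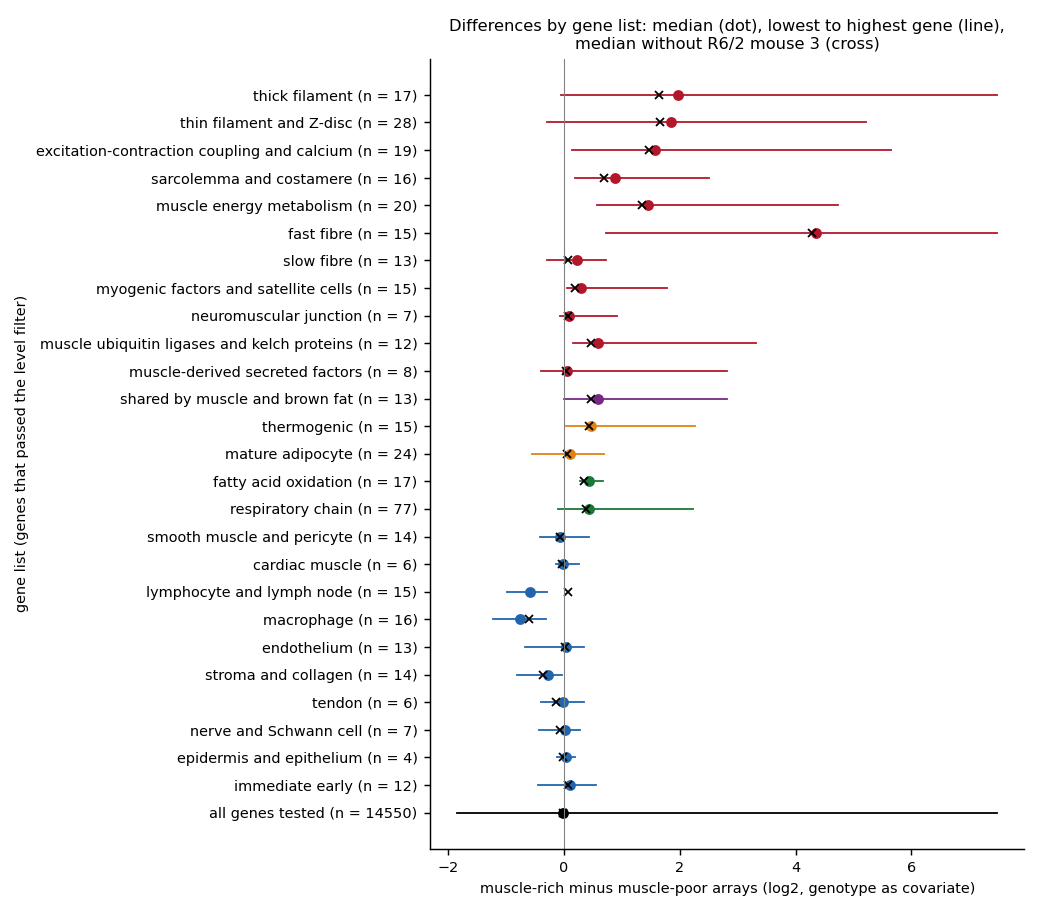
Difference between muscle-rich and muscle-poor arrays (horizontal axis, log2, genotype as covariate) for each gene list and for all genes tested, with a dot at the median gene, a line from the lowest to the highest gene and a cross at the median without R6/2 mouse 3. The fast fibre list has a median of 4.36, the slow fibre list 0.22, and the lymphocyte list moves from -0.60 to 0.07 without R6/2 mouse 3.

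Outside the muscle lists, 15 genes were past the threshold in the higher direction. Several of them are known muscle genes, and 6 of the 15 were under the level limit of 5.45 in every muscle-poor array, so their values are also given as a description with no p-value. Mypn, or myopalladin, a Z-disc protein, read 6.53, 7.86, 8.74 and 8.21 in WT mice 1 and 5 and R6/2 mice 3 and 6 and 4.71 to 5.10 in the muscle-poor arrays, a difference of 2.80 ± 0.35 (log2, SE). The gene 3425401B19Rik, which RefSeq also lists as Cefip, read 6.74, 7.76, 8.76 and 7.87 against 5.16 to 5.49. Hjv, or hemojuvelin, a coreceptor of iron regulation made in liver and muscle, read 7.09, 8.31, 9.17 and 8.85 against 5.74 to 6.08. Tmod4, the skeletal muscle tropomodulin, and 1110002E22Rik had differences of 1.57 ± 0.24 and 2.24 ± 0.28.

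Among the other 10, Ckmt2, the mitochondrial creatine kinase of sarcomeric muscle that brown fat also makes, had the largest difference. It read 6.20, 7.63, 9.05 and 7.62 in WT mice 1 and 5 and R6/2 mice 3 and 6 and 4.21 to 4.94 in the muscle-poor arrays, a difference of 2.81 ± 0.44 (log2, SE). All of its muscle-poor values were under the level limit of 5.45. Eef1a2, the elongation factor of muscle and neurons, differed by 1.89 ± 0.30. The remaining 8 were Usp13, Cdc34, Mlf1, Camk2a, Sh3bgr, Rtn2, Mettl22 and Tlcd4, with differences from 0.63 to 2.69. Eef1a2, Rtn2, Mettl22 and Tlcd4 were named after their values were seen. No gene of the 15 stayed past the threshold in all 9 fits that left out 1 array: 1110002E22Rik did in 6 of 9 and Mypn in 4 of 9, and Camk2a and Mettl22 in 0 of 9. The groups were chosen by a muscle gene, so nothing is read from how often a gene was called in these fits. All 15 differences stayed above 0 in those fits.

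Both genes that were lower were outside the muscle lists. Fn1, the matrix protein fibronectin, read 8.62, 8.90, 8.68 and 8.55 in WT mice 1 and 5 and R6/2 mice 3 and 6 and 9.25 to 9.89 in the muscle-poor arrays, a difference of -0.83 ± 0.12 with a limma adjusted p of 0.0414. Ptafr, the receptor of platelet-activating factor on myeloid cells, read 6.87 to 7.55 against 7.74 to 8.38, a difference of -0.86 ± 0.12 (adjusted p = 0.0343). In all 9 fits that left out 1 array both lost the call, with adjusted p of 0.0541 to 0.222 for Ptafr and 0.061 to 0.174 for Fn1 by limma.

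The next lower genes by p were taken among those that differed by 1.5 times or more. Of these, Adam8, Slco2a1, Ptger2, Myof, Fcer1g and Lbp were in no cell type list. They had differences from -1.21 in Lbp to -0.60 in Ptger2 and limma adjusted p of 0.0653 to 0.131.

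Macrophage genes had differences below 0 and did not pass the test. All 16 that passed the filter had a difference below 0 and 0 passed the adjusted threshold. An unadjusted p under 0.05 was found in 7 of the 16 (2.85% of all genes in that direction), and 5 of the 16 separated the groups (1.55% of all genes). The median was -0.76 (-0.61 without R6/2 mouse 3 and -0.58 within WT mice), against -0.01 over all genes. Cd68, the lysosomal marker of macrophages, read 8.77, 9.0, 7.80 and 8.69 in WT mice 1 and 5 and R6/2 mice 3 and 6 and 10.41, 9.75, 10.22, 10.08 and 9.23 in WT mice 2, 3, 4 and 6 and R6/2 mouse 2, a difference of -1.15 ± 0.21 with a limma adjusted p of 0.0892. The 3 left-out arrays, all R6/2, read 8.73, 8.75 and 9.04 for Cd68 and 8.57, 8.92 and 9.05 for Fn1 in mice 1, 4 and 5, below every muscle-poor array, and in them genotype and muscle content cannot be told apart. Itgam, the integrin alpha M of myeloid cells, read 6.27 to 7.37 against 7.41 to 8.01 (adjusted p = 0.0661). Cd68 was past the threshold in 3 of the 24 alternatives and Itgam in 2. The list mean was 7.14 to 8.11 in the muscle-rich, 7.77 to 8.12 in the left-out and 8.34 to 8.73 in the muscle-poor arrays. The part of the larger muscle share in these values was not tested.

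Genes of heat production and oxidation had differences above 0 and did not pass the adjusted threshold. Ucp1, the uncoupling protein of brown and beige fat, read 11.62, 10.88, 12.55 and 12.61 in WT mice 1 and 5 and R6/2 mice 3 and 6. It read 8.70, 8.80, 10.06, 9.78 and 11.41 in WT mice 2, 3, 4 and 6 and R6/2 mouse 2, and 12.35, 8.44 and 11.47 in R6/2 mice 1, 4 and 5. The highest Ucp1 values of all 12 arrays were those of the muscle-rich R6/2 mice 6 and 3. WT mouse 5, which had the highest Acta1 of all arrays, had the lowest Ucp1 of the muscle-rich arrays. R6/2 mouse 4, left out and with clear muscle signal, had the lowest Ucp1 of all 12. The order of Ucp1 within the groups was not tested. The difference was 1.66 ± 0.34 with a limma adjusted p of 0.137 (1.72 without R6/2 mouse 3), 1.91 within WT and 1.17 within R6/2 mice, and the groups overlapped. With array weights, a fit that stopped before convergence, its limma adjusted p was 0.0317. Ucp1 was not past the threshold in the other 23 alternatives.

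All 15 thermogenic genes that passed had a difference above 0, 9 of them at an unadjusted p under 0.05 (5.04% of all genes) and 0 after adjustment by limma, with a median of 0.47 (0.43 without R6/2 mouse 3). Elovl3, a fatty acid elongase induced in brown fat, differed by 2.26 ± 0.58 with a limma adjusted p of 0.28. It passed in 1 of the 24 alternatives, with the array weights whose fit stopped before convergence. Acot11, a thioesterase induced in brown fat, passed in 2. The 17 fatty acid oxidation genes all had a difference above 0, with a median of 0.43 (0.34 without R6/2 mouse 3), 5 at an unadjusted p under 0.05 and 0 after adjustment. Of 77 respiratory chain genes 74 were above 0, the median was 0.44 (0.39 without R6/2 mouse 3), and 28 separated the groups (2.87% of all genes). In this list 0 passed the adjusted threshold, and 44 outside the muscle lists had an unadjusted p under 0.05 (5.04% of all genes).

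Cox7a1, the cytochrome oxidase subunit of muscle, heart and brown fat, read 9.67, 9.58, 10.79 and 10.58 in WT mice 1 and 5 and R6/2 mice 3 and 6 and 7.19, 7.55, 8.53, 8.67 and 9.01 in WT mice 2, 3, 4 and 6 and R6/2 mouse 2. Its groups did not overlap, and its difference of 1.65 ± 0.32 had a limma adjusted p of 0.106. It passed in 3 of the 24 alternatives. The limma adjusted p was 0.0312 with the lymphocyte covariate, 0.0177 with array weights and 0.0422 with the replicate block. The fit with array weights stopped before convergence, and the replicate block had a consensus correlation of -0.617. Of the 13 genes shared by muscle and brown fat, 12 had a difference above 0, and the median was 0.58 (0.47 without R6/2 mouse 3). Ckmt2 was the only one past the threshold. It is a gene of sarcomeric muscle and the groups were chosen by a muscle gene, so nothing is read from that call. Genes of mature fat cells stayed close to the whole, with 19 of 24 above 0, a median of 0.10 (0.05 without R6/2 mouse 3) and 0 called, 1 at an unadjusted p under 0.05.

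**Figure D5:**
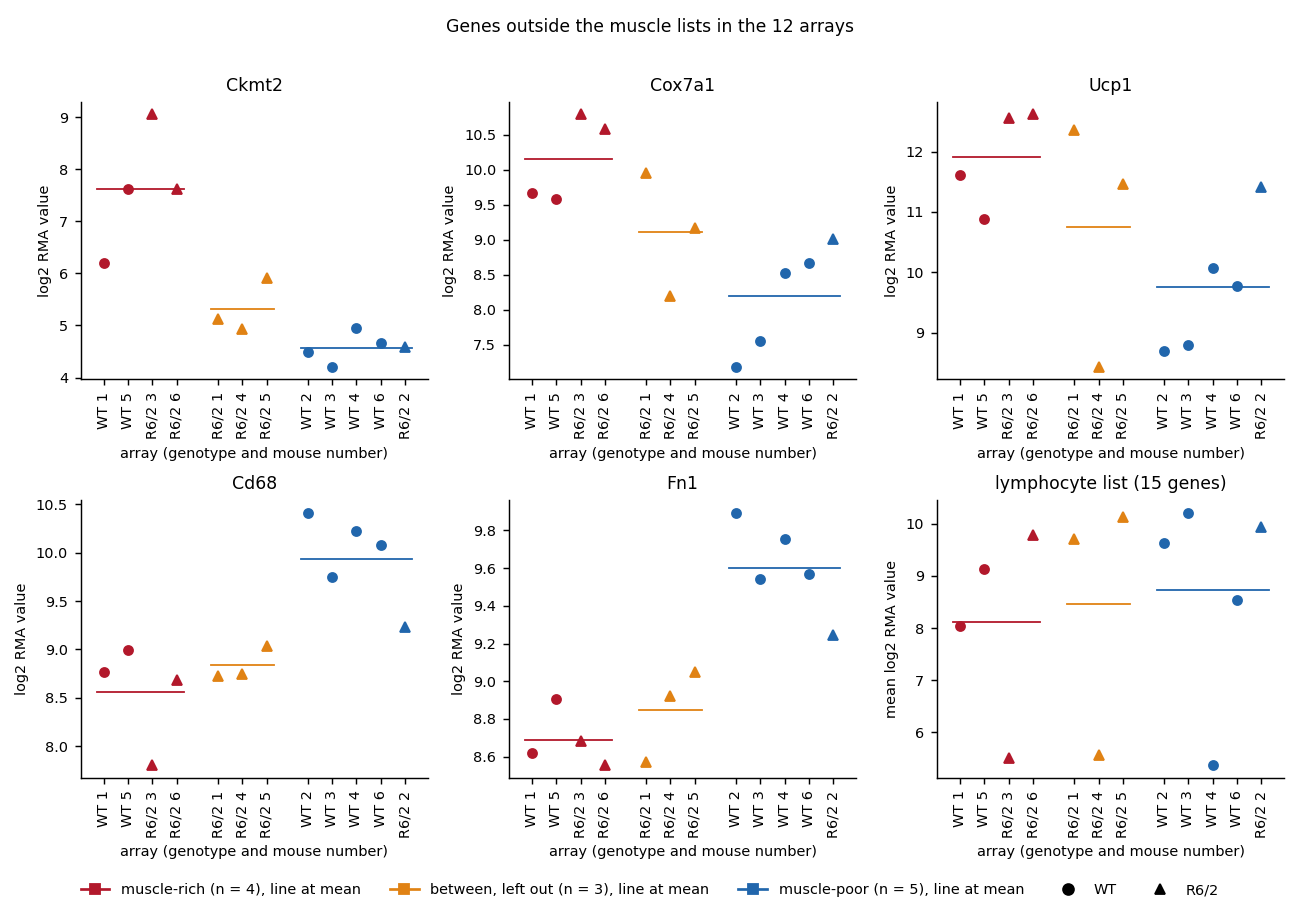
Log2 RMA values of Ckmt2, Cox7a1, Ucp1, Cd68 and Fn1 and the mean of 15 lymphocyte genes in each of the 12 arrays, with circles for WT and triangles for R6/2 mice and a line at each group's mean. Ckmt2 and Cox7a1 are higher and Cd68 and Fn1 lower in all 4 muscle-rich than in all 5 muscle-poor arrays, Ucp1 overlaps, and the lymphocyte mean is between 5.37 and 5.56 in R6/2 mouse 3, R6/2 mouse 4 and WT mouse 4.

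Other cell types that a pad can hold did not separate with the split. Smooth muscle and pericyte genes had a median of -0.08 over 14 genes, cardiac muscle -0.02 over 6, endothelium 0.03 over 13, tendon -0.02 over 6, nerve and Schwann cell 0.02 over 7 and epithelium 0.03 over 4, and 0 genes of these lists were called. Without R6/2 mouse 3 these medians lay between -0.15, in tendon, and 0.01, in endothelium. In the main fit, 2 smooth muscle and pericyte genes were lower at an unadjusted limma p under 0.05. So was 1 gene each of endothelium, tendon and nerve, against 2.85% of all genes in that direction. In the higher direction the count was 0 in each of these lists. The cardiac marker Myh6 was under the filter. Stroma and collagen genes were below 0 in all 14, with a median of -0.27 and 0 called, 0 at an unadjusted p under 0.05. That median was -0.37 without R6/2 mouse 3, and it became -0.44 when WT mouse 3 was left out, -0.16 for WT mouse 4 and -0.17 for R6/2 mouse 6. Lymphocyte genes were below 0 in all 15 with a median of -0.60, which single arrays moved in both directions. It was 0.07 without R6/2 mouse 3, whereas omitting R6/2 mouse 2 gave 0.26 and omitting WT mouse 3 gave -0.32. Leaving out WT mouse 4 gave -1.36, WT mouse 5 -1.21 and R6/2 mouse 6 -0.997. Within R6/2 mice the median was -2.37. Within WT mice it was 0.26, which is the same estimate as without R6/2 mouse 2, the only muscle-poor R6/2 array. The tendon gene Thbs4 read 7.20 in R6/2 mouse 3 and 5.71 to 5.81 in the other muscle-rich arrays.

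The fit rested on 9 arrays with 6 residual degrees of freedom, and the count of higher genes moved over 1.5 times when most single arrays were left out: leaving out a muscle-rich array gave 99 genes for WT mouse 1, 27 for WT mouse 5, 35 for R6/2 mouse 3 and 25 for R6/2 mouse 6, and leaving out a muscle-poor array gave 23 for WT mouse 2, 26 for WT mouse 3, 39 for WT mouse 4, 30 for WT mouse 6 and 18 for R6/2 mouse 2. With the lymphocyte mean as a further covariate the counts were 115 higher and 34 lower.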

How the data were processed

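RNA of inguinal WAT of 12 mice (6 WT, 6 R6/2) was hybridised to 1 array per mouse, and the log2 values deposited by the authors, 1 per probe set, come from a joint RMA normalization (Affymetrix Expression Console 1.1.2, also in the submitters' processing notes). RMA brings all arrays to 1 distribution, so a value is relative to the rest of its array, and a larger share of RNA from 1 tissue leaves less for the others. The genome build was not given in the sources used here. Of 41345 probe sets, 23521 have 1 gene symbol in the platform annotation, 1820 several and 16004 none, and those with several or none were left out. Kept were 15328 probe sets whose mean in WT or R6/2 mice was above the median of the probe sets without a symbol (5.45 and 5.44). Probe sets of 1 gene were merged by the median (595 genes), which gave 14550 genes.

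Arrays were split on Acta1 at 10 and 8, and the difference was fitted over 9 arrays with limma 3.58.1 (lmFit, eBayes) in R 4.3.3, with genotype as a covariate and Benjamini-Hochberg adjustment over all genes. Errors are standard errors of that fit; the number of arrays limits the precision. With 4 against 5 arrays the smallest exact two-sided p is 0.0159. The split, the members and the gene lists were chosen with earlier results of these data known. Eligible to be named were Acta1, Myh4, Atp2a1, all fast and slow fibre genes, Sln, Pln, Mrln, Ucp1, up to 4 genes of each other list by size of difference, and outside the muscle lists in either direction the 10 genes of smallest p that differed by 1.5 times or more; of these, list members not named stand in the counts and ranges. Further genes were named after their values were seen: Ryr1, Slc2a4, Dysf, Itga7, Myh3, Myh8, Mybpc1, Actn2, Lmod2, Rtn2, Mettl22, Tlcd4 and Eef1a2. The method was tested on simulated data. The main fit did not pair WT with R6/2 mice by replicate number. Alternatives covered the filter, the merging, the centring, the covariates, the split, the variance model and each array left out. The packages data.table (1.17.8) and matplotlib (3.10.9) were used to read and plot the values.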

Additional observations from a re-analysis of the deposited data

Results flagged for a closer look

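The highest or lowest array of a named gene was examined for a wide gap to the others in 272 groups of 4 or 5 arrays, of which chance alone marks about 1 in 20, and 24 were marked. R6/2 mouse 3 was far above the other muscle-rich arrays in 8 genes: Myh2 at 9.47, Myoz2 at 7.55, Tnnc1 at 8.29, Myh7 at 7.08, Tnni1 at 6.58, Myl3 at 6.6, Thbs4 at 7.20 and Cycs at 10.68. It was far below them in Pecam1, at 9.44. WT mouse 1 was far below the other muscle-rich arrays in Ttn at 9.69, Actn3 at 9.84 and Tnnc2 at 9.55, and far above them in Fosb at 8.31. R6/2 mouse 6 was low in Pln at 5.74 and in Lbp at 5.87.

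Among the muscle-poor arrays WT mouse 4 was low in the macrophage genes Ctss at 10.15 and Mpeg1 at 8.0 and in Myl4 at 5.42, and high in Usp13 at 6.05. WT mouse 3 was low in Myh7 at 5.06, Klhl41 at 4.73 and C1qb at 8.53, R6/2 mouse 2 was low in Sgca at 5.13, and WT mouse 6 was high in Tnnt3 at 6.63.

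The 3 arrays left out of the comparison carried muscle signal above every muscle-poor array: Myh4 was 9.07 in R6/2 mouse 1, 10.38 in R6/2 mouse 4 and 10.42 in R6/2 mouse 5, against at most 5.26.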

How the results depend on the processing

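Of 24 alternatives, 1 (the 3 left-out arrays counted as muscle-rich) was added after seeing the data. The 58 higher genes became 32 with a mean over the arrays used above 6.5 (9831 genes tested), 36 with arrays centred on the mature adipocyte mean, which moved the median of all genes to -0.14, 115 with the lymphocyte mean as a covariate, 90 with Acta1 as a continuous covariate over 12 arrays, 6 in WT arrays only, 10 in R6/2 arrays only (2 against 1), 181 with array weights (whose fit stopped before convergence), 0 with 12 arrays split at an Acta1 of 9 and 1 with the left-out arrays as muscle-rich. The split at 9 puts R6/2 mouse 1, with a Myh4 of 9.07, among the muscle-poor arrays. Leaving out 1 array gave 18 to 99 higher and 0 to 2 lower genes. With median centring 1 gene was lower, and it was 1 of the 2 of the main fit. With the adipocyte centring 1 gene was lower, and it was neither Fn1 nor Ptafr. Lower genes numbered 6 without the genotype covariate, 34 with the lymphocyte covariate and 47 with array weights. They numbered 0 with the continuous covariate, the split at 9, the left-out arrays as muscle-rich or WT only. The cause of these moves was not tested.

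The deviations of same-numbered WT and R6/2 mice had correlations from -0.785 to 0.776, over 0.1 in 2 of 6 pairs. Such correlations hold no record of litter or dissection day, so they cannot decide whether the numbers pair mice. With the number as a replicate block (consensus correlation -0.617) 77 genes were higher and 3 lower, 56 and 2 of them shared with the fit without it.

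Only part of the 142 muscle-list genes that passed was followed over the alternatives. Among those followed, the difference of 8 changed sign in at least 1 alternative. It ran from -0.06 to 2.31 in Myh2, -0.12 to 1.43 in Csrp3, -0.17 to 0.65 in Myh7 and -0.05 to 0.84 in Tnnt1. In Myl2 it ran from -0.28 to 0.39, in Myh7b from -0.19 to 0.18, in Myom3 from -0.14 to 0.81 and in Ache from -0.05 to 0.22. Among other genes, with the adipocyte centring Tnnt2 was -0.024, Scx -0.032, Sox10 -0.019 and Cdh1 -0.060. In WT arrays only Scx was -0.076 and Trp63 -0.16. In R6/2 arrays only Ryr2 was 0.063, Cdh1 -0.26, Krt10 0.071, Fosb -0.18 and Fos -0.37. With array weights Cdh1 was -0.13 and Krt10 0.025, and with the replicate block -0.027 and 0.095. Krt10 was 0.025 with median centring and 0.019 with the left-out arrays as muscle-rich. Leaving out 1 array gave -0.076 to 0.22 for Scx, -0.16 to 0.44 for Trp63, -0.14 to 0.23 for Cdh1, -0.070 to 0.076 for Krt10, -0.21 to 1.06 for Fosb and -0.51 to 1.01 for Fos, the lowest of both without WT mouse 1. The fast fibre median stayed between 3.36 and 4.86, the macrophage median between -0.90 and -0.52 and the respiratory chain median between 0.26 and 0.51 in all 24.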
